A study of Mus musculus with 16 samples.

Results

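The mitosis and spindle genes are a list of 38 genes whose products start mitosis, build the spindle, hold and separate the chromosomes and divide the cell. They were chosen by name from what is known of their products, without a cutoff on any measured value. All 38 had a row among the 43432 gene rows of the deposited RNA-seq table, and all 38 were among the 13091 genes tested, which are those with a mean of at least 10 normalized counts over the libraries. The study set B cells labelled KO beside B cells labelled Flox, and its title names the targets of the microRNAs miR-221-3p and miR-222-3p as its aim. Total RNA was sequenced in 4 KO and 4 Flox libraries, and RNA bound to the Argonaute protein Ago2 was taken by HITS-CLIP, a method that crosslinks RNA to the protein and sequences the bound fragments, in another 4 KO and 4 Flox libraries. All 4 groups were B cells from the spleen of C57B6L/J mice, cultured for 4 days with an antibody against CD40 at 500 ng/ml, IL-4 at 25 ng/ml and IL-21 at 10 ng/ml. The labels spell out neither the deleted allele nor the Cre driver, and they give no age. They also do not say whether each library came from a mouse of its own, so p-values measure only the spread between these samples, which may be technical. In the RNA-seq table the Flox columns are named WT.

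Mitosis is driven by the kinase CDK1 bound to A-type and B-type cyclins, which CDC25 phosphatases switch on. The ubiquitin ligase APC/C, with its activator CDC20, ends mitosis by marking cyclin B and securin for destruction. Aurora and Polo-like kinases, kinesin motors and the kinetochore proteins act in between, and the spindle checkpoint holds CDC20 back until all chromosomes are attached. Signals through CD40 with IL-4 and IL-21 make resting B cells divide, and most genes of this kind are transcribed late in the cell cycle through promoter elements called CHR and CCAAT boxes, bound by the DREAM and MuvB complexes, B-MYB, FOXM1 and NF-Y.

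The microRNAs themselves are shown first because the title of the study names them. Both are encoded on the minus strand of chromosome X, at chrX:19146307-19146329 and chrX:19146901-19146923 of GRCm38.p6 in RefSeq, and they share their seed, bases 2 to 8, which is in capitals.
miR-221-3p: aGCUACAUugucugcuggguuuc
miR-222-3p: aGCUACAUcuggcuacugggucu

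Of the 38 genes, 31 had a promoter sequence in the RefSeq table of GRCm38.p6, running from 250 bases before to 50 after the annotated start site. The motifs searched were TTTGAA or TTCGAA for the CHR and CCAAT for the CCAAT box, on both strands, and a CHR and a CCAAT box can share at most 1 end base. The first 4 genes of the list that hold both are printed to show how the elements are arranged. Capitals mark the matches, which read TTCAAA and ATTGG where they lie on the other strand.
Mki67, chr7:135716330-135716629, minus strand: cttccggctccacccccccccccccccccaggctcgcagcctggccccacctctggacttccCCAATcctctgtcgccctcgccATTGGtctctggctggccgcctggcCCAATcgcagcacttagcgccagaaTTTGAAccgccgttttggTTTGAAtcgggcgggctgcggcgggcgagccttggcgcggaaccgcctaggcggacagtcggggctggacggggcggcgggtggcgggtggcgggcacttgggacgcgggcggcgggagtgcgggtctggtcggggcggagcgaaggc
Cdk1, chr10:69352863-69353162, minus strand: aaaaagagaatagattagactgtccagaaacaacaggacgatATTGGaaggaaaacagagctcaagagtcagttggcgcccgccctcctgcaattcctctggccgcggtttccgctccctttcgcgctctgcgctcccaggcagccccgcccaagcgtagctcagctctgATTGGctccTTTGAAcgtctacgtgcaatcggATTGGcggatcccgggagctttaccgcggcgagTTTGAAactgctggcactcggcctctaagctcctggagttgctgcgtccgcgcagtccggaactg
Ccnb2, chr9:70421505-70421804, minus strand: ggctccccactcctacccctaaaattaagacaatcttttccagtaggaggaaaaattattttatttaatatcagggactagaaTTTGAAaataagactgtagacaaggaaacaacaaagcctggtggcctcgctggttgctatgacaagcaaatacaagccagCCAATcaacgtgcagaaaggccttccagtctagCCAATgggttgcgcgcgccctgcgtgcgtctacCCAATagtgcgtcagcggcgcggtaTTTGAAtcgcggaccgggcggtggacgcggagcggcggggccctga
Cdc20, chr4:118437294-118437593, minus strand: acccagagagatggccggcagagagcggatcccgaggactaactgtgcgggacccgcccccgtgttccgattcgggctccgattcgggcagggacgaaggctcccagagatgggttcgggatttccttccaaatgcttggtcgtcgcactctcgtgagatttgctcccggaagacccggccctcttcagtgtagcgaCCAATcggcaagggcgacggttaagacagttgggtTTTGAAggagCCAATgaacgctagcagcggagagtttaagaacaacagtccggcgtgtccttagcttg

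A CHR lay in the window of 25 of the 31 genes (80.6%), against 21.7% of 27025 genes with a promoter in the table and 16.4% of 9565 tested genes with one. A CCAAT box was found in 23 (74.2%), against 41.1% and 43.1%, and 21 (67.7%) held both, against 8.61% and 6.89%. At least 2 CCAAT boxes were present in 15 (48.4%), against 13.3% of all genes with a promoter and 17.1% of the tested ones. The CHR nearest the start site began between 103 bases before and 41 bases after it, with a median of 3 bases after it, and in 23 of 25 genes it lay within 50 bases. The exceptions were Mki67, at 98 bases before, and Kif2c, at 103 bases before. Of 50 CCAAT boxes 49 lay before the start site, at a median of 69.5 bases. The map of the elements shows the common order, with CCAAT boxes upstream and the CHR close to the start. Neither motif was found in Birc5, Mad2l1, Nuf2 and Nusap1, while Ccnb1 and Cenpe held CCAAT boxes without a CHR and Anln, Kif15, Kif2c and Ndc80 a CHR without a CCAAT box. These are matches of letters, and no factor's binding was measured.

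**Figure D1:**
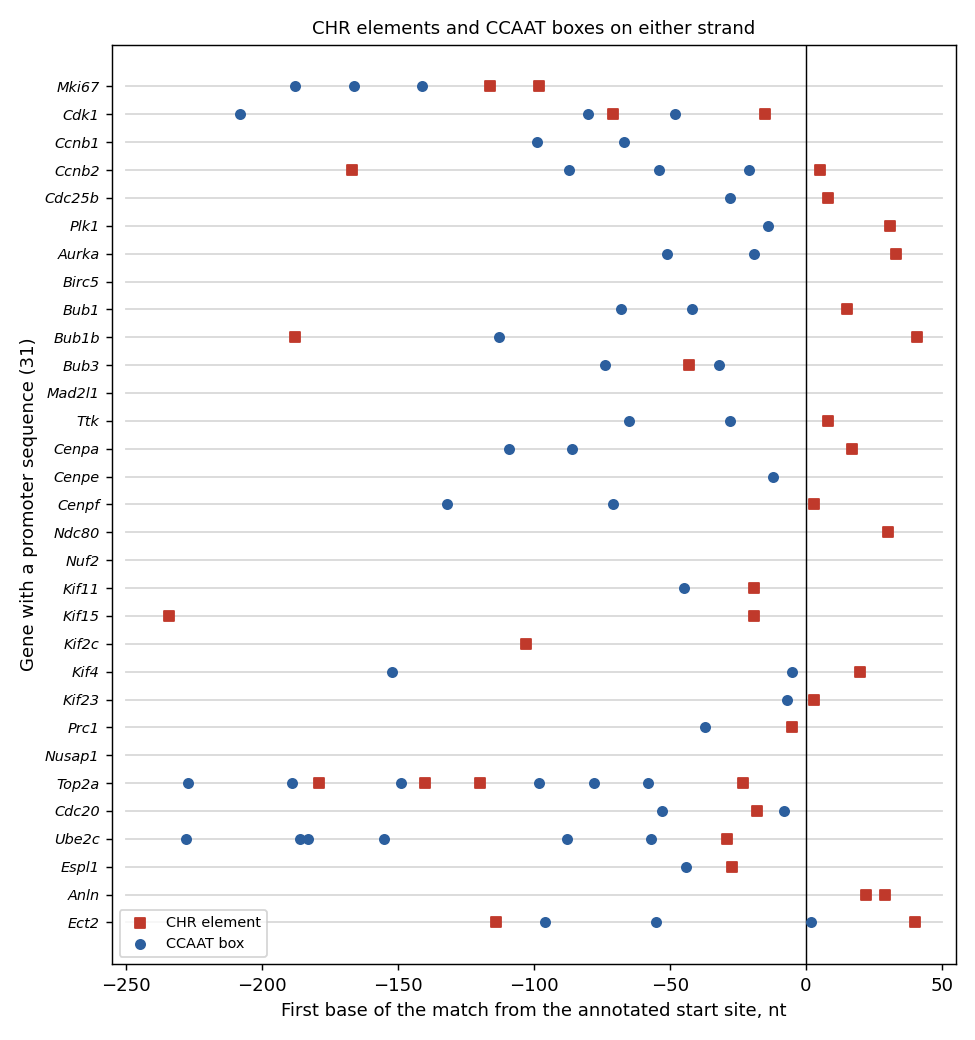
Position of each CHR (red squares) and CCAAT box (blue circles) in the promoter window of 31 mitosis and spindle genes; the horizontal axis is the distance of the match's first base from the annotated start site in nt, and each row is a gene. The CHR nearest the start site lies within 50 bases of it in 23 of the 25 genes that have one. Of 50 CCAAT boxes 49 lie upstream, where 250 of the 300 bases of the window lie.

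The RNA-seq libraries held 22947689 to 39236132 reads in KO and 25421025 to 39616596 in Flox. The row of Gm14636, at the locus of miR-221 and miR-222, had 220 to 288 reads in KO and 1 to 3 in Flox. Mir221 had 0 reads in each KO library and 0 to 3 in Flox, and Mir222 had 0 in every library. Reads of the microRNA rows were thus too few to show a loss. KO 1 and KO 3 were set off from the other libraries. In a principal component analysis of the tested genes they took values of -38.0 and -35.6 on the first component (33.5% of the variance), with KO 2 at -15.3, KO 4 at 7.47 and the Flox libraries between 14.5 and 26.5. They were thus the furthest from Flox, and leaving them out, as done below, tends by itself to shrink differences between the groups. A set of 7 B cell markers summed to 75799.8 to 87162.5 normalized counts in KO and 71097 to 77916.5 in Flox. Their log2 differences, KO minus Flox, were -0.15 for Cd79b and -0.10 for Blk. They were 0.19 for Cd79a, 0.12 for Ms4a1, 0.26 for Cd22, 0.37 for Ebf1 and 0.57 for Pax5. The 24 markers of other cell types summed to 850.2 to 1016 in KO and 685.9 to 811.7 in Flox, most of it from Pecam1, a gene of endothelial cells, platelets and many leukocytes. Of these 24, 6 had 0 in every library, among them S100a8 and S100a9 of neutrophils, Ncr1 of natural killer cells and the globins Hbb-bs and Hba-a1. The part of these differences in the results that follow was not tested.

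All 38 genes were well measured, with at least 587 reads in every library and means from 891 (Cdc25c) to 26340.1 (Top2a) normalized counts, which are read counts divided by 1 size factor per library. None of the 38 passed the test between KO and Flox. In limma, the linear model used on log2 of the normalized count plus 1, the lowest Benjamini-Hochberg adjusted p among them was 0.258, where 9 of 13091 genes passed the threshold of 0.05 (0.0687%). edgeR's quasi-likelihood test and DESeq2, run on whole reads recovered from the normalized counts, also called 0 of the 38, against 0.0687% and 1.76% of the genes they tested, and the authors' deposited table lists 0 of the 38 under that threshold, against 1.58% of its genes. An unadjusted limma p under 0.05 was seen for 4 of the 38, namely Cdk1, Foxm1, Incenp and Cenpa, which is 10.5% of them and below the 15.1% of all genes tested. The KO mean was higher for Foxm1 and Incenp (7.74% of all genes in that direction) and lower for Cdk1 and Cenpa (7.39%). In bulk RNA, fewer cells in mitosis and less RNA per cell cannot be told apart.

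The sizes of the differences were small. The log2 fold change, given here as the KO mean minus the Flox mean of log2 values, ran from -0.45 for Cenpa to 0.33 for Mki67, with a median of 0.05 over the 38 genes and -0.01 over all genes tested. It was positive in 25 of the 38 (65.8%) and in 48.5% of all genes. The limma 95% intervals of all 38 lay within a change of 1 on the log2 scale in either direction, and those of 34 lay within 0.5. The lowest bound was -0.79 for Cenpa and the highest was 0.67 for Mki67. The groups did not overlap in 1 gene, Cenpa, against 7.97% of all genes (3.79% with KO below Flox). These counts moved with single libraries. Positive values numbered 19 without KO 3 and 28 without Flox 1, with medians of 0.01 and 0.10. Without KO 1 and KO 3 together there were 28, with a median of 0.07, and no gene of the list had an unadjusted p under 0.05, against 6.26% of all genes.

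**Figure D2:**
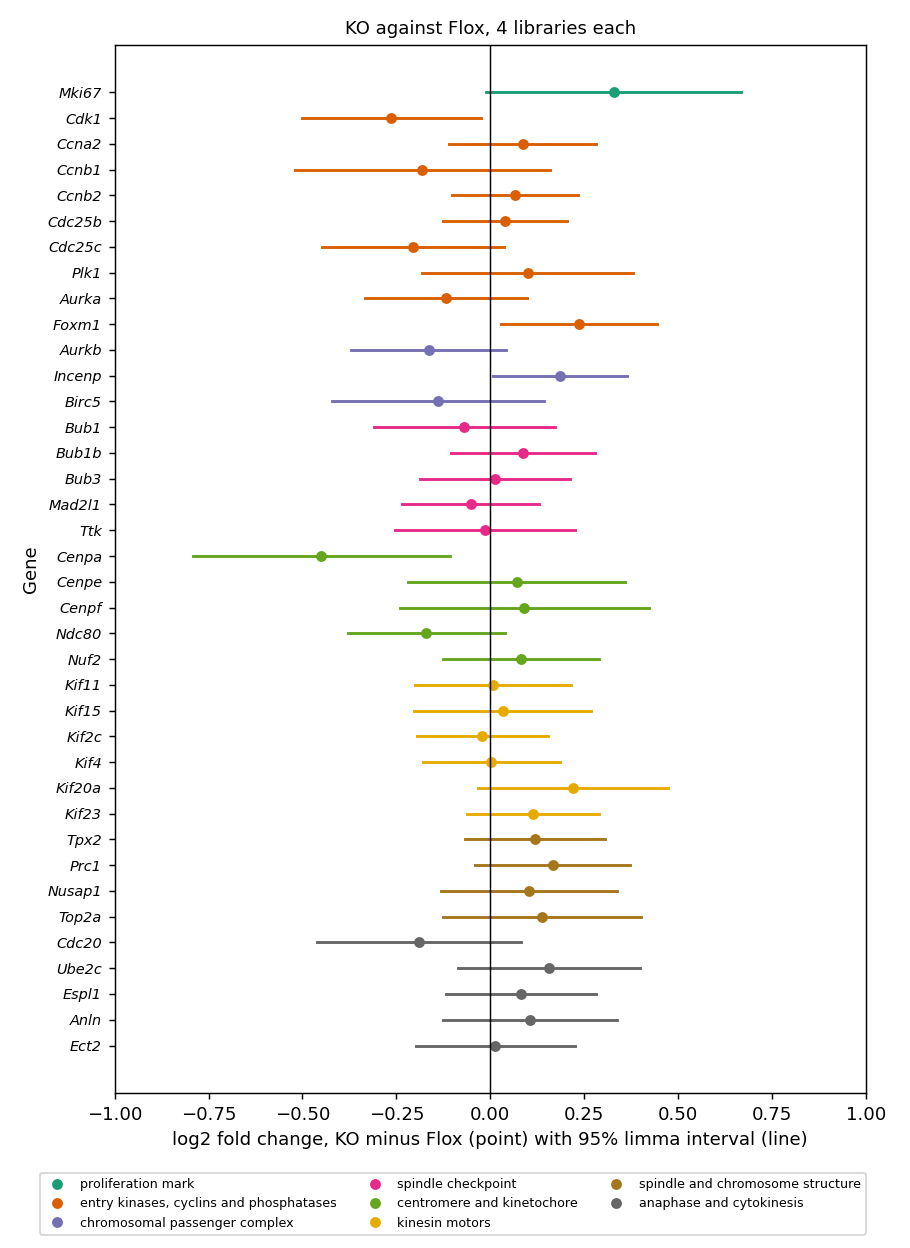
Log2 fold change of each of the 38 genes, KO minus Flox, as a point with its limma 95% interval as a line (4 libraries in each group; colours mark the roles). All intervals lie between -0.79 and 0.67, and those of Cdk1, Foxm1, Incenp and Cenpa leave out 0 before adjustment.

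Libraries of the same group differed among themselves in these genes. The median gene of the list lay, relative to its own mean over the 8 libraries, at -0.07, 0.08, 0.06 and 0.01 on the log2 scale in the KO libraries, in the order of their numbers, and at 0.14, -0.01, -0.10 and -0.08 in the Flox libraries. Flox 1 was thus the library with the highest levels, and it held the highest value of 15 of the 38 genes, while Flox 3 and Flox 4 held the lowest values of 21. The share of all reads that fell on the 38 genes was 0.612, 0.675, 0.681 and 0.651% for KO and 0.709, 0.646, 0.599 and 0.591% for Flox, so that the groups overlapped. KO 3 was mixed, with the highest value of 11 genes and the lowest of 9.

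**Figure D3:**
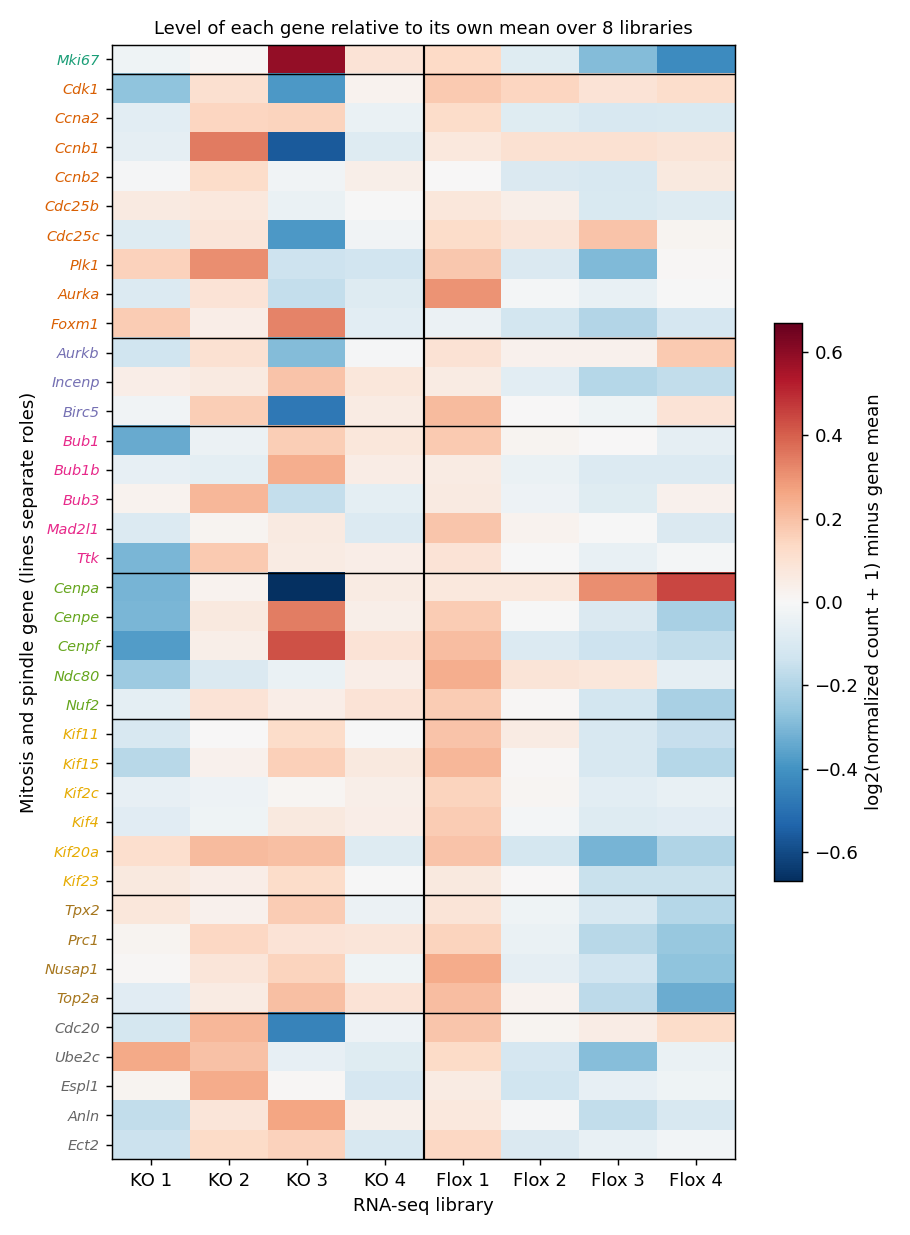
Level of each of the 38 genes in the 4 KO and 4 Flox RNA-seq libraries, as log2 of the normalized count plus 1 minus the gene's mean over the 8 libraries (red above, blue below; lines separate roles). Flox 1 is above the mean for most genes, and KO 3 holds both the highest value of 11 genes and the lowest of 9.

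Mki67 encodes Ki-67, a protein of the chromosome surface that marks cycling cells, and lies at chr7:135689784-135716361. It was at 21647, 22208, 33157 and 23541 normalized counts for KO 1 to 4 and at 24209.8, 20875, 18040 and 16513 for Flox 1 to 4, the order kept for the genes that follow. KO 3 stood far above the other KO libraries, and Flox 1 lay above 3 of the 4 KO libraries, so the groups overlapped. Its log2 fold change, 0.33 (SE 0.15, n = 4 in each group, adjusted p = 0.338 in limma), went to 0.19 without KO 3 and to 0.43 at the other end, without Flox 1.

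Among the 9 genes of mitotic entry, 5 lay above 0 and 4 below it, the median log2 fold change was 0.04, and 0 were called. Cdk1, the kinase at the centre of the switch, lies at chr10:69335146-69352938. It had 5385, 6981, 4969 and 6583 normalized counts in KO and 7318, 7166, 6903 and 7046 in Flox. The Flox libraries lay close together, KO 1 and KO 3 were lowest and KO 2 lay inside the Flox range. KO minus Flox gave -0.26 (SE 0.11, adjusted p = 0.301 in limma), -0.18 without KO 3 and -0.07 without KO 1 and KO 3. Ccnb1, for cyclin B1, the partner that carries CDK1 into the nucleus, lies at chr13:100778650-100786570. Its normalized counts were 1331, 1768, 940 and 1310.4 in KO and 1459, 1492, 1494 and 1474 in Flox. Here the 4 Flox values were almost equal, with a coefficient of variation of 1.10%, and the KO values spread to both sides of them, with one of 25.3%. On the log2 scale the difference of -0.18 (SE 0.15, adjusted p = 0.567 in limma) was -0.02 without KO 3 and turned to 0.04 without KO 1 and KO 3.

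The other cyclins were close to 0, with Ccna2 (cyclin A2) at a log2 fold change of 0.09 and Ccnb2 (cyclin B2) at 0.07. Cdc25b and Cdc25c, the phosphatases that remove the inhibitory phosphates from CDK1, were at 0.04 and -0.21. Plk1, the Polo-like kinase of mitosis, at chr7:122159439-122169873, had 2929.9, 3265, 2392 and 2403 normalized counts in KO and 2981, 2459, 2147 and 2648 in Flox. The groups overlapped widely, and the log2 difference between them was 0.10 (SE 0.13, adjusted p = 0.714 in limma), or 0.01 without KO 2 and 0.18 without Flox 1. Aurka, the Aurora kinase of the spindle poles, was at -0.12.

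Foxm1, at chr6:128362967-128376146, encodes a transcription factor that binds promoters of mitotic genes and so stands above many of the others. It had 2863, 2629, 3200.4 and 2425 normalized counts in KO and 2479, 2338, 2222 and 2357 in Flox. KO 1 to 3 lay above all Flox libraries and KO 4 lay below Flox 1. As a log2 fold change this was 0.24 (SE 0.09, adjusted p = 0.296 in limma), 0.17 without KO 3 and 0.10 without KO 1 and KO 3.

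The chromosomal passenger complex corrects faulty attachments at the centromere and later marks the plane of division. Of the 3 members listed, Aurkb and Birc5 lay below 0 and Incenp above it, and none passed. Aurkb, its kinase, at chr11:69045647-69051664, had 3320, 3913.5, 2978 and 3614.5 normalized counts in KO and 3894, 3716, 3713 and 4102.5 in Flox. KO 1 and KO 3 were the lowest, and KO 2 lay inside the Flox range. Its log2 fold change was -0.16 (SE 0.09, adjusted p = 0.404 in limma), or -0.09 without KO 3 and -0.06 once each library was corrected for trends with gene span and GC content. Incenp, the scaffold that activates Aurora B, at chr19:9872297-9899533, had 6024, 6078, 6669 and 6143 normalized counts in KO and 6072, 5551, 5107.5 and 5208 in Flox. Only Flox 1 reached the KO range, and it lay above KO 1 by a narrow margin. The difference of 0.19 on the log2 scale (SE 0.08, adjusted p = 0.318 in limma) became 0.15 without KO 3 and 0.16 without KO 1 and KO 3. Birc5, which encodes survivin, was at -0.14 and at 0.04 without KO 1 and KO 3.

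The 5 genes of the spindle checkpoint lay close to 0. Their log2 fold changes were -0.07 for the kinase Bub1, 0.09 for Bub1b (BubR1) and 0.01 for Bub3, which bind one another at unattached kinetochores. Mad2l1, for the MAD2 protein that captures CDC20, was at -0.05, and Ttk, for the kinase MPS1 that starts the checkpoint, at -0.01. The lowest limma adjusted p in this group was 0.6302. The limma 95% interval was -0.31 to 0.17 for Bub1 and narrower than that for the other 4.

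Cenpa showed the largest difference of the 38 genes. It encodes CENP-A, the histone H3 variant that marks centromeres, and lies at chr5:30666777-30674830. Its normalized counts were 3719.5, 4687, 2902 and 4799 in KO and 4850.5, 4849, 5728 and 6280.3 in Flox. All KO values lay below all Flox values, but the highest KO value was 99.0% of the lowest Flox value, and KO 1 and KO 3 were the lowest. The KO mean was 4027 ± 893 and the Flox mean 5427 ± 704 (SD, n = 4 each). In limma the log2 fold change was -0.45 (SE 0.16, 95% interval -0.79 to -0.11), which did not pass (adjusted p = 0.258), and the authors' deposited table gives -0.43 with an adjusted p of 0.148. It shrank to -0.30 without KO 3 and to -0.19 without KO 1 and KO 3, and it was -0.37 with the span and GC correction.

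The other genes of the centromere and kinetochore did not share the size of this difference. Cenpe, a kinesin that tethers chromosomes to microtubules, was at a log2 fold change of 0.07 and Cenpf, a large outer kinetochore protein, at 0.09, and both turned negative without KO 3 (-0.03 and -0.04). Ndc80 and Nuf2 encode partners in the complex that grips the microtubule end. They were at -0.17 and 0.08, and the groups overlapped in both.

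Of the 6 kinesin motors 5 lay above 0, at a median log2 fold change of 0.02. Kif11 (Eg5), which pushes the spindle poles apart, was at 0.01, Kif15, which supports it, at 0.03, Kif2c (MCAK), which takes microtubule ends apart, at -0.02, and Kif4, a chromosome-bound motor, at 0.00. Larger were the values of the motors of the midzone, Kif20a at 0.22 and Kif23 at 0.11. Kif20a had 4584 to 5649 normalized counts in KO and 3919.5 to 5563 in Flox, so that the groups overlapped (SE 0.11, adjusted p = 0.373 in limma).

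The 4 genes of spindle and chromosome structure were all positive, with a median of 0.13. Tpx2, which nucleates microtubules around chromosomes and activates Aurora A, was at a log2 fold change of 0.12, Prc1, which bundles the midzone, at 0.17 and Nusap1, another microtubule binder, at 0.10. Top2a, the topoisomerase that untangles sister chromatids, lies at chr11:98992943-99024189 and had 24816, 27146, 30118 and 27875 normalized counts in KO and 30203, 26589.9, 23173 and 20801 in Flox. Flox 1 was the highest library of all and Flox 4 the lowest, and the KO libraries lay between them. Their log2 difference was 0.14 (SE 0.12, adjusted p = 0.577 in limma), or 0.05 without Flox 4 and 0.23 without Flox 1. Without Flox 1, the KO libraries lay above the other 3 Flox libraries in 7 of the 38 genes, namely Mki67, Ccna2, Foxm1, Incenp, Kif20a, Prc1 and Nusap1, against 7.89% of all genes under that setting. Flox 1 held the highest value of 15 of the 38 genes, so leaving it out favours such a count, and no conclusion is drawn from it. Without KO 4, by contrast, the groups did not overlap in 2 of the 38, in either direction, against 17.2% of all genes.

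The 5 genes of anaphase and cytokinesis had a median of 0.08. Cdc20, which turns the APC/C on, was at a log2 fold change of -0.19, or -0.07 without KO 3 and -0.002 without KO 1 and KO 3. Ube2c, an E2 enzyme of the APC/C, was at 0.16, Espl1 (separase), which cuts cohesin, at 0.08, Anln (anillin) at 0.11 and Ect2, which activates RhoA at the division plane, at 0.01. Without KO 2, the KO libraries lay below all Flox libraries in 7 of the 38 genes, namely Cdk1, Ccnb1, Cdc25c, Aurka, Aurkb, Cenpa and Cdc20, against 8.96% of all genes under that setting. KO 2 held the highest value of 8 of the 38 genes and the lowest of 0, so leaving it out favours this count too.

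Differences of these genes varied with gene span, the distance from annotated start to end. When 10274 coding genes, taken at a mean of 50 or more, were ordered by span and cut into 5 equal bins, the median log2 fold change went from -0.12 in the bin with the shortest span to 0.13 in the bin with the longest. Of the 38 genes, 6 fell in the bin with the shortest span and had a median of -0.17, the next 3 bins held 9, 11 and 10 of them with medians of 0.07, 0.08 and 0.08, and the last, with the longest span, held 2 with a median of 0.02, below the bins before it. Among the 19 genes up to the median span of 24789.5 nt, 9 were positive with a median of -0.02, and among the 19 longer ones 16 were positive with a median of 0.08. Spearman's rho of log2 fold change and span was 0.24 across the 38 genes and 0.30 across all tested genes, and -0.06 across the 38 after that correction. It is given as a description, since genes of the same libraries are not independent. In KO 3 the 19 shorter genes had a median deviation of -0.14 and the longer ones of 0.16. With the correction 22 of the 38 were positive, the median stayed at 0.05, and an unadjusted p under 0.05 was seen for Mki67, Cdk1, Foxm1, Incenp, Cenpa, Ndc80, Kif20a and Ube2c, which is 8 of 38 (21.1%) against 15.8% of all genes, with 0 called.

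**Figure D4:**
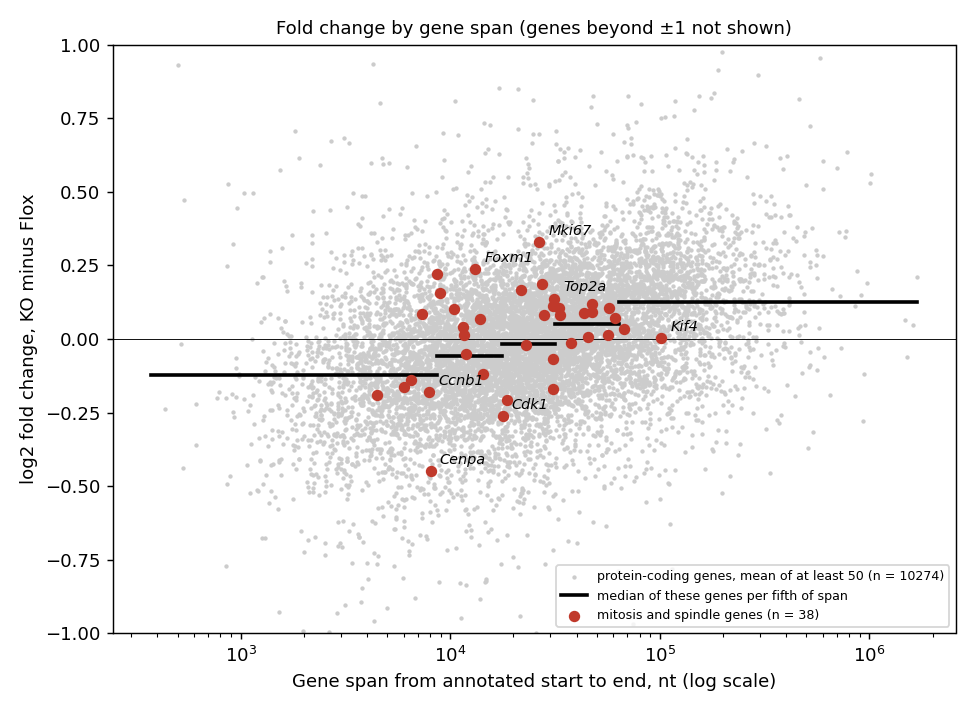
Log2 fold change, KO minus Flox, against gene span in nt on a log axis, for 10274 coding genes at a mean of 50 or more (grey) and the 38 mitosis and spindle genes (red); black lines are the medians of the grey genes in each of 5 bins of span. The grey medians go from -0.12 to 0.13, and the red points scatter around them, with Cenpa lowest and Mki67 highest.

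Some rows share sequence or space with other genes. Prc1 lies wholly within the span of Rccd1 on the opposite strand, and the ends of Ccna2, Cdc25b, Kif4, Kif20a, Nusap1 and Cdc20 overlap Exosc9, Spef1, Pdzd11, Cdc23, Oip5 and Elovl1 on the opposite strand. Whether strand was used in counting is not given in the sources used here, so their reads cannot be told apart where they overlap. The pseudogene copies Ccnb1-ps, Ccnb2-ps and Kif4-ps had means of 0.56, 5.36 and 0 normalized counts.

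Genes of the same pathways outside the list gave a similar picture, with 0 called by limma or edgeR in each of 6 lists. Of 20 APC/C subunits and regulators 6 were positive, with a median log2 fold change of -0.05, and DESeq2 called 1, Pttg1. Pttg1 encodes securin, which holds separase inactive until anaphase. It had 744, 828, 513 and 779 normalized counts in KO and 983, 902, 1152 and 1173 in Flox. All KO libraries lay below all Flox libraries, KO 3 lowest. This was -0.57 on the log2 scale (SE 0.15, adjusted p = 0.239 in limma and 0.040 in DESeq2), -0.42 without KO 3, and the authors' deposited table gives an adjusted p of 0.0399. Anapc1, the largest APC/C subunit, was at 0.23 and Mad2l1bp, which helps to silence the checkpoint, at -0.26, neither past the test.

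Among 29 other genes of the spindle and cytokinesis 18 were positive, with a median of 0.03, and DESeq2 called 1, Cit. Cit encodes citron kinase of the midbody. Its normalized counts were 1991, 1736, 2018 and 1715 in KO and 1439.5, 1413.5, 1202 and 1188 in Flox. All KO libraries lay above all Flox libraries by a clear margin. The difference was 0.51 on the log2 scale (SE 0.10, adjusted p = 0.212 in limma and 0.003 in DESeq2), 0.40 with the span and GC correction, and the authors' deposited table gives an adjusted p of 0.00405. Kifc1, a minus-end motor, was at -0.30 and Pcnt, a scaffold of the centrosome, at 0.27, neither past any test run.

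The 29 genes of the centromere and outer kinetochore had a median of -0.01 with 13 positive, and the genes with the smallest p were Kntc1 (0.30), Cenpp (-0.31) and Cenpo (0.18). The 19 condensin and cohesin genes had a median of 0.06 with 14 positive, with Ncapd2 at 0.16, Pds5a at 0.27 and Ncapg at -0.16. In the 27 regulators of mitotic entry and factors of the DREAM complex the median was 0.07 with 18 positive, with the repressor E2f7 at 0.45, Ensa, which restrains the phosphatase PP2A in mitosis, at -0.24 and the E2F partner Tfdp1 at 0.27. The 40 genes of DNA replication, which are transcribed earlier in the cycle, had a median of 0.03 with 25 positive, with Rfc4 at -0.39, Pole at 0.28 and Rpa2 at -0.31. An unadjusted limma p under 0.05 was seen for 3 genes of the APC/C list (15%), 2 of the centromere list (6.90%), 1 of the condensin and cohesin list (5.26%), 4 of the other spindle list (13.8%), 4 of the entry list (14.8%) and 2 of the replication list (5%), against 15.1% of all genes tested. Several of the named values were smaller without KO 1 and KO 3, namely Pttg1 at -0.38, Anapc1 at 0.12, Mad2l1bp at -0.13, Kifc1 at -0.15, Ncapg at -0.04, Ensa at -0.15, Rfc4 at -0.12, Pole at 0.16 and Rpa2 at -0.04. Kntc1 at 0.23 and Pds5a at 0.21 were smaller as well, while Cenpp at -0.31, Cenpo at 0.19 and Ncapd2 at 0.17 were not. Leaving out the KO libraries furthest from Flox tends by itself to shrink such differences, so no conclusion is drawn from this.

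Ago2 binding was read from the output of dCLIP, a program that compares the CLIP tags of 2 conditions in bins of 5 nt and joins bins of the same state into regions. The files name neither condition, so the sign of a difference is given as positive or negative and not as a genotype, and the authors pooled the replicates, so no spread is known. Score and difference are the authors' values, and a region's difference is the mean over its bins. On the strand of the gene the 38 genes held 2089 of 962700 regions, and all 38 had at least 1, against 85.5% of all genes tested. Of the 2089 regions, 1206 (57.7%) were in the state of no difference, against 59% of the regions in all tested genes. Regions that passed both limits, a score of 5 or more and a difference of 0.25 or more in size, numbered 172 (8.23%, against 7.31%). Negative ones made up 4.02% and positive ones 4.21%, against 2.15% and 5.16% in all tested genes. At least 1 such region was found in 32 of the 38 genes, against 54.4% of all tested genes and 78.4% of the genes with a mean at or above that of Cdc25c, the lowest of the list. Ccnb2, Cdc25c, Plk1, Birc5, Ndc80 and Cdc20 had none.

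Mki67 held the most regions, 253 over 65.1% of its span, with 32 past both limits, 18 negative and 14 positive. Its 3 highest by score were all positive and lay close together in the body of the gene, at chr7:135700125-135700159 (score 25.6, difference 0.36), chr7:135700305-135700339 (17.2, 0.34) and chr7:135699950-135699979 (16.5, 0.33). Top2a followed with 211 regions, of which 13 negative and 14 positive ones were past both limits. At its 3′ end a positive region at chr11:98993015-98993049 (score 67.4, difference 0.25) and a negative one at chr11:98992940-98992979 (65.9, -0.26) lay next to each other. Regions of opposite sign side by side were thus seen within a single transcript end.

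In Cdk1, 3 regions were past the limits, all positive and all between 3158.5 and 3401 nt from the annotated 3′ end, the highest at chr10:69338370-69338439 with a score of 35.1 and a difference of 0.26. Ccnb1 held 13, of which 8 were negative, and its 3 highest were negative and at most 734.5 nt from the 3′ end, led by chr13:100779320-100779449 with a score of 28.8 and a difference of -0.29. Ccna2 held 10, 7 of them negative, led by chr3:36566575-36566679 (score 32.5, difference -0.28). Cenpa held 5, 4 of them positive, led by chr5:30674360-30674404, 448 nt from the 3′ end, with a score of 29.4 and a difference of 0.39. Foxm1 held 1 (positive, score 13.0), Incenp 2 (both positive, highest score 8.3) and Aurkb 2 (a positive one of score 18.6 and a negative one of score 10.0). Kif11 held 13 and Ect2 and Mad2l1 7 each.

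The highest scores of all were in Ect2 (102.9) and Anln (75.3), at regions with differences of -0.23 and -0.19 that fell short of the difference limit. Regions past both limits lay at a median of 6085.5 nt from the 3′ end, and 79 of the 172 lay within 5000 nt of it, against 632 of all 2089 regions. The same shares were not computed over all tested genes, so this is not a trait shown to be particular to the list. Seed matches were not searched in these regions, and exon and UTR positions were not used here. With a score limit of 10 there were 23 genes with a region past the limits, and with a difference limit of 0.5 there were 0, since no region of these genes reached it.

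**Figure D5:**
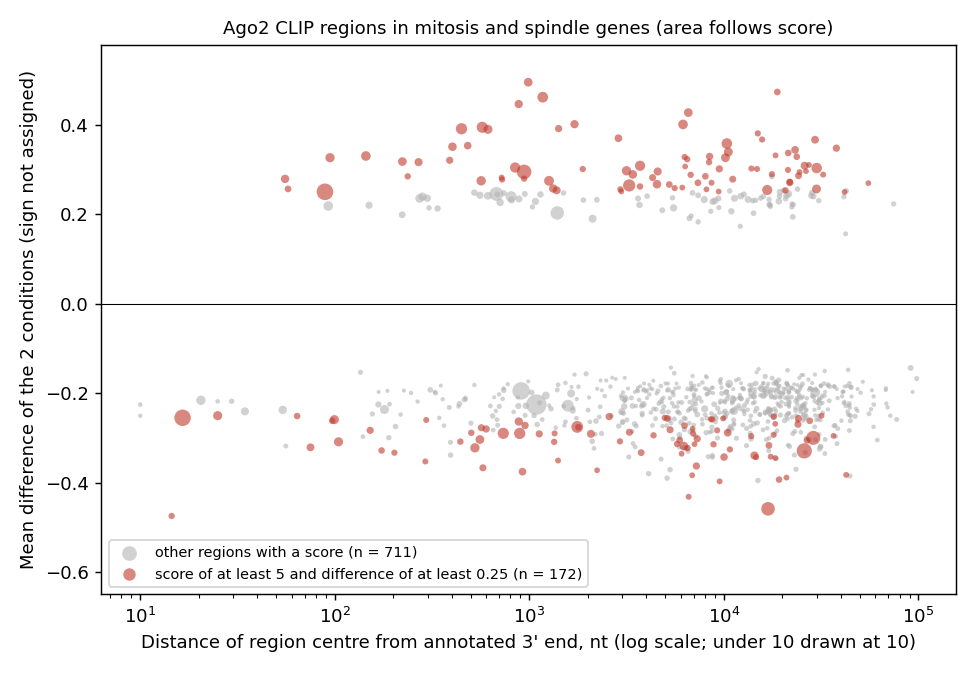
Mean difference of each Ago2 CLIP region of the 38 genes that has a score, against the distance of its centre from the gene's annotated 3′ end in nt on a log axis (point area follows the score; red, the 172 regions past both limits). Positive and negative regions past the limits are found both near the 3′ end and deep inside genes. None of those past the limits reaches a difference of 0.5 in size, and the sign is not assigned to a genotype.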

How the data were processed

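Splenic B cells were profiled by RNA-seq and Ago2 HITS-CLIP, with 4 KO and 4 Flox libraries each. The RNA-seq table deposited by the authors holds, per the file headers, a normalized signal (gene counts divided by 1 size factor per library, in 1 row per gene), the authors' log2 fold change, fold change as a ratio, raw p-values with FDR, and gene GC content in percent. The authors' dCLIP output, with replicates pooled, gives per 5-nt bin a difference on a log scale and a state, and their region list gives a score per region. Its 4 columns of tags and mutations were not used, because the headers do not name their conditions. The submitters' processing notes list STAR, Bowtie2, cutadapt, SAMtools, DESeq and DESeq2, with no version or role, and the build mm9. The gene positions, however, are those of GRCm38. For all 38 listed genes the lower coordinate, on either strand, lies within 1372 nt of that of the gene in RefSeq GRCm38.p6. The upper coordinate was not compared.

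Whole reads were recovered from the normalized values (100% whole within 0.1 read in each library), and depth is the sum of these reads. limma 3.58.1 (lmFit, eBayes with trend) was run in R 4.3.3 on log2 of the value plus 1 for genes with a mean of at least 10, two-sided, with Benjamini-Hochberg adjustment over 13091 genes and a threshold of 0.05. Alternatives were a pseudocount of 10, no filter, a filter at 50, TMM scaling, edgeR 4.0.16, DESeq2 1.42.0, limma-voom, a fit with replicate numbers as a block, a spline correction for span and GC content with 4 degrees of freedom, each library left out, and KO 1 and KO 3 left out. Bins of 1 state were joined into regions, and 100% of them matched the authors' list. A region was given to a gene where it overlapped the gene's span on the same strand. The fitting code was checked on simulated data. There limma called, in the right direction, 37.9% of log2 changes of 0.5, 74.2% of those of 1 and 97.1% of those of 2.

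The 38 genes, the other gene lists and the markers were chosen with earlier results of these data known. 1 marker of the planned set is not reported here. Every listed gene is named. Values for each library are given for Mki67, Cdk1, Ccnb1, Plk1, Aurkb and Top2a and for genes with an unadjusted p under 0.05. Other lists are represented by up to 3 genes with the smallest p, with Pttg1 and Cit in full because DESeq2 called them. CLIP regions are the highest by score past a score of 5 and a difference of 0.25. Promoters are the first in the list with both elements, from RefSeq.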

Additional observations from a re-analysis of the deposited data

Results flagged for a closer look

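In 3 of 80 groups of 4 libraries examined, 1 library lay far from the other 3 by Dixon's test at the 95% level. Chance alone gives about 1 in 20. Mki67 reached 33156.5 normalized counts in KO 3, against 21647 to 23541 in the other KO libraries. Ccna2, for cyclin A2, was at 10207.5 in Flox 1 and at 8704 to 8852 in the other Flox libraries. Aurka, for Aurora A, was at 2963 in Flox 1 and at 2322 to 2399 in the others. The cause was not tested.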

How the results depend on the processing

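None of the 38 genes was called under any of 19 other settings, edgeR, DESeq2 and limma-voom among them. Over all tested genes DESeq2 called 213 against 9, among them 1 of the APC/C list (Pttg1) and 1 of the other spindle genes (Cit). Leaving out 1 library gave 8 to 17 genes called, 19 to 28 of the 38 positive, medians of 0.01 to 0.10 and 1 to 8 of the 38 whose groups did not overlap (8.86 to 17.7% of all genes). That count was 2 with TMM scaling (7.96% of all genes) and 2 without KO 1 and KO 3 (14.6%), Incenp and Cenpa in both. No gene passed the CLIP limits (0) at a difference of 0.5. Same-numbered libraries showed no shared pattern: their deviations correlated at -0.09, -0.06, -0.05 and 0.00, against -0.16 to 0.22 for libraries of different numbers. Whether the samples were paired by design cannot be told from this. With the replicate block 11 genes were called, none of the 38, and an unadjusted p under 0.05 was seen for Cdk1 and Cenpa (2, or 5.26% of the 38, against 14.2% of all genes). The sign of 25 of the 38 log2 fold changes held in every setting. Most of those that turned were small, but Ccnb1 and Birc5, at -0.18 and -0.14 in the main fit, turned as well. With the span and GC correction, with or without the block, those that turned were Mad2l1 at 0.0064, Kif11 at -0.033, Kif15 at -0.038, Kif4 at -0.094 and Ect2 at -0.044. Without KO 1 and KO 3 they were Ccnb1 at 0.041, Birc5 at 0.041 and Ttk at 0.10, and DESeq2 put Kif4 at -0.00032. With 1 library left out the range was -0.14 to 0.033 for Bub1, -0.060 to 0.067 for Bub3, -0.094 to 0.00030 for Mad2l1, -0.074 to 0.085 for Ttk, -0.031 to 0.18 for Cenpe, -0.037 to 0.23 for Cenpf, -0.043 to 0.072 for Kif11, -0.025 to 0.11 for Kif15, -0.047 to 0.024 for Kif2c, -0.026 to 0.060 for Kif4 and -0.036 to 0.064 for Ect2. The cause was not tested. Depth did not limit these genes, which had at least 587 reads in each library, while a 95% interval that reached, at the median, 0.21 to either side on the log2 scale limits what 4 libraries in each group can show.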
